A study of Mus musculus with 6 samples.

Results

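The regions described here are peaks from a method that captures methylated, CpG-dense DNA. They were listed for a single library and lay over 10 kb from any gene. They come from methyl-CpG immunoprecipitation, in which sheared DNA is bound by an MBD2-Fc protein and the most strongly held fraction, rich in methylated CpG sites, is sequenced. They were chosen by list membership and by position: the 4 deposited peak lists were merged wherever peaks overlapped by 1 bp or more, and a merged region was kept when exactly 1 list held it and its centre was more than 10 kb from the body of every mouse RefSeq gene, coding or not. This gave 1353 regions of 10085 merged regions in all, each of them 1 peak of 151 bp. Because both the single listing and the distance from genes were used to choose them, neither is a result, and the counts that rest on them are given as descriptions without a test.

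The lists come from I/11 cells, an erythroblast line from p53-deficient mouse fetal liver (E12.5). Plcg1 encodes phospholipase C gamma 1, a signalling enzyme that acts below the erythropoietin (Epo) receptor. All cells carried a lentiviral short hairpin RNA and were selected with puromycin at 1 µg/ml for 48 h. The groups used were hairpin 133 against Plcg1 at 24 h and at 0 h of differentiation, and hairpin 14 against Plcg1 at 24 h and at 0 h, with 1 library each. The 0 h cells were taken 72 h after infection from medium with 1 U/ml Epo, stem cell factor and dexamethasone, and the 24 h cells were taken 96 h after infection from medium with 10 U/ml Epo and transferrin. Scrambled-hairpin libraries at both times are part of the series and their peaks were not analysed here. The cells share the p53-deficient origin of the line, and a genomic DNA library does not measure transcripts, so neither the knockdown nor the cell type could be checked against expression.

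In mammals most CpG sites outside CpG islands are methylated, and CpG sites are sparse there, since methylated cytosine is lost by deamination over evolutionary time. DNA far from genes therefore offers few places where methylation and CpG density coincide, and methyl-CpG binding protein captures such places. Distal elements such as enhancers also lie in this part of the genome and lose or gain methylation as blood cells mature. The lists hold coordinates alone, with no score and no direction, so a region below is a place listed for a library, and whether it had more or less methylated DNA than another library cannot be told from it. With 1 library in each group, tests compare these lists and not the conditions. Read depth is unknown, and 95% exact binomial intervals cover counting error only.

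Every list contributed to the regions. Hairpin 133 held 322 of them at 24 h, against 410 at 0 h, and hairpin 14 held 243 at 24 h, against 378 at 0 h. As a share of the regions found in that list alone, these were 16.6% (15 to 18.4%) for hairpin 133 at 24 h and 17.1% (15.6 to 18.6%) at 0 h. For hairpin 14 they were 14.7% (13 to 16.5%) at 24 h and 19.0% (17.3 to 20.8%) at 0 h. The hairpin 14 list of 24 h had the lowest share and that of 0 h the highest, which was not tested. Over all lists the share was 16.9% of the 7985 single-list regions on assembled chromosomes. The number at 24 h was 0.785 times that at 0 h with hairpin 133 and 0.643 times with hairpin 14. The 24 h lists were shorter as a whole. For all peaks the ratio was 0.759 with hairpin 133 (2960 against 3900 peaks) and 0.776 with hairpin 14 (2666 against 3437). For single-list regions at or within 10 kb of genes the same ratios were 0.810 and 0.874, so with hairpin 14 the far regions were the scarcer kind at 24 h relative to 0 h. That difference was not tested, since both measures entered the choice of regions.

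**Figure D1:**
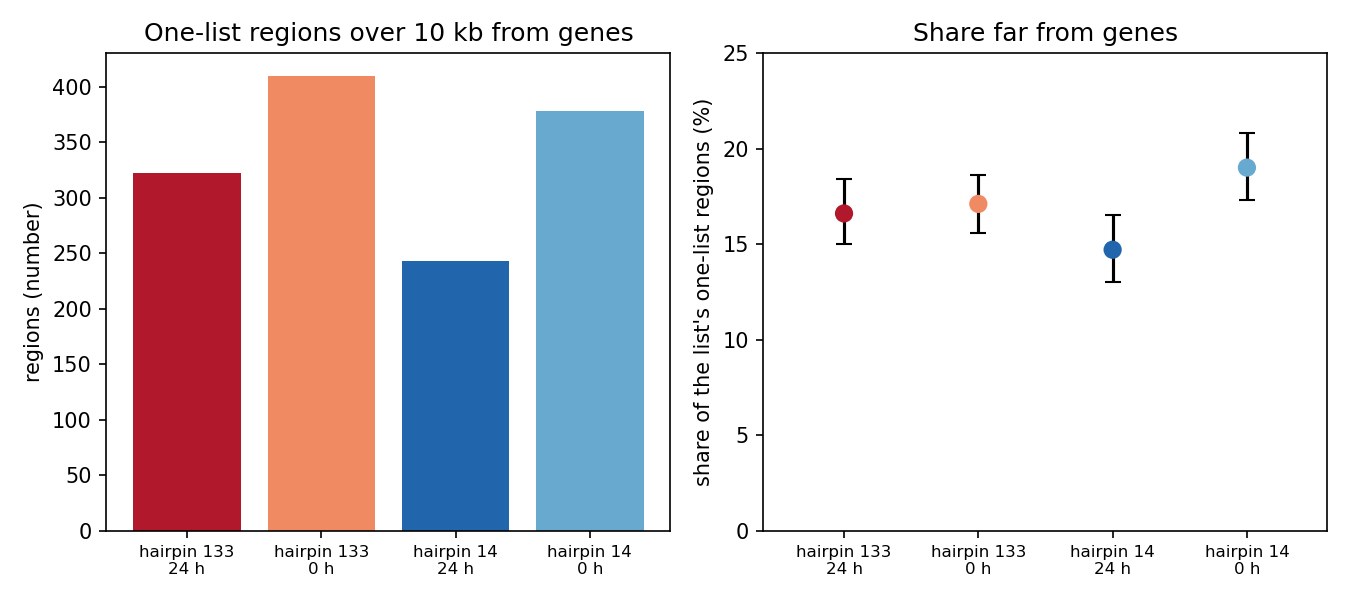
Left, number of regions listed for 1 library only and over 10 kb from genes, per library; right, their share of that library's single-list regions in percent, with exact binomial 95% intervals. The lowest share is 14.7% (hairpin 14 at 24 h) and the highest 19.0% (hairpin 14 at 0 h).

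Regions far from genes were mostly, but not always, listed once, as were the regions of the lists in general. Single-list regions at any distance numbered 1937 beside 2960 peaks for hairpin 133 at 24 h and 2404 beside 3900 at 0 h. With hairpin 14 they numbered 1653 beside 2666 peaks at 24 h and 1991 beside 3437 at 0 h. Of all peaks over 10 kb from genes, 78.3% in the list of hairpin 133 at 24 h and 66.7% in that of 0 h belonged to a single-list region, and 72.1% and 66.0% with hairpin 14 at 24 h and 0 h. Looked at from the other side, the share lying over 10 kb from genes was 16.9% among regions of 1 list, 14.8% among those of 2 lists, 10.9% among those of 3 and 2.53% among the 237 of all 4 on assembled chromosomes. The last group consisted of 6 regions. Regions of 2 or more lists that lay this far from genes numbered 269 and serve as the nearest comparison below.

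The limit of 10 kb cuts through a continuum of distances. Just outside it, a region of hairpin 133 at 0 h on chromosome 5 (mm10, chr5:36998910-36999060) lay 10003 bp from Wfs1, the gene of wolframin, and a region of hairpin 14 at 0 h on chromosome 8 lay 10014 bp from Spaca7. Just inside it, a region of hairpin 133 at 24 h on chromosome 14 was left out at 9999 bp from a non-coding gene, and one of hairpin 133 at 0 h on chromosome 4 at 9998 bp. The 5 regions nearest the limit on its outer side span 10003 to 10014 bp and the 5 on its inner side 9924 to 9999 bp.

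Most of the regions lay at the near edge of the space open to them. The median distance to the nearest gene of any kind was 27.8 kb, with quartiles at 16.5 and 51.9 kb. Between 10 and 20 kb there were 469 regions (34.7%), between 20 and 50 kb 529 (39.1%), between 50 and 100 kb 232 (17.1%), and beyond 100 kb 123 (9.09%). The ground itself is spread differently: 21.6% of all bases over 10 kb from genes lay in the first band and 25.3% in the last. Density therefore dropped with each step, with 2.13 regions per Mb of ground at 10 to 20 kb, 1.66 at 20 to 50 kb, 1.03 at 50 to 100 kb and 0.476 beyond 100 kb. Far regions of several lists leaned the same way, with 40.5% at 10 to 20 kb and 7.06% beyond 100 kb. The ground includes assembly gaps and the Y chromosome, which held 0 regions and has 43.6% of its ground beyond 100 kb. Their part in the gradient was not tested. CpG density of this ground was not measured, and its part in the gradient was not tested.

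Beyond 100 kb lay 8.39% of the regions of hairpin 133 at 24 h, against 9.02% at 0 h, and 9.05% of those of hairpin 14 at 24 h, against 9.79% at 0 h, given as a description since distance chose the regions. Medians ran from 25.9 kb (hairpin 133 at 0 h) to 30.4 kb (hairpin 14 at 0 h). Measured to protein-coding genes alone the median was 74.2 kb, 557 regions (41.2%) lay over 100 kb away and 29 over 1 Mb away. The nearest gene of any kind was a long non-coding RNA for 546 regions (40.4%), a protein-coding gene for 383 (28.3%) and a pseudogene for 321 (23.7%). In the gene table as a whole, long non-coding RNAs make up 25.5%, protein-coding genes 43.8% and pseudogenes 19.9%. Those are shares of gene entries and not of ground, so no preference for a type of gene can be read from them.

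**Figure D2:**
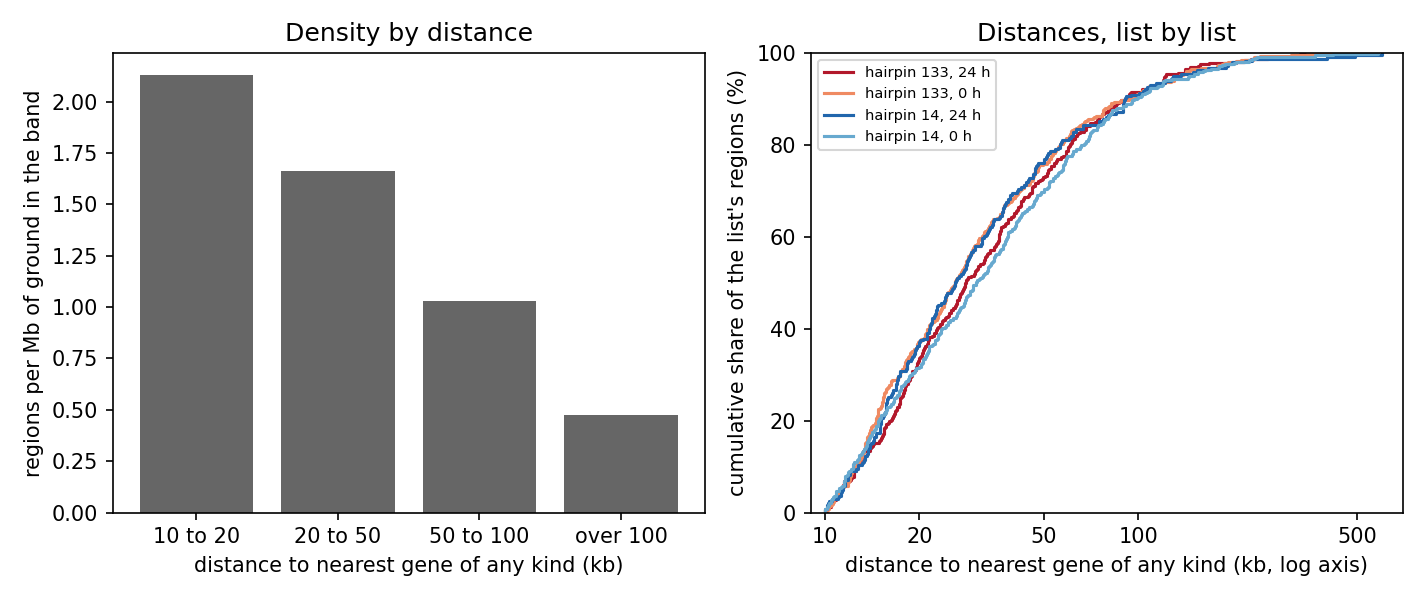
Left, regions per Mb of ground in 4 bands of distance to the nearest gene of any kind (kb); right, cumulative share of each library's regions against that distance (kb, log axis). Density runs from 2.13 per Mb in the band nearest to genes to 0.476 per Mb beyond 100 kb, and the 4 cumulative curves run close together.

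The most remote regions sat in gene deserts. The farthest from any gene, of hairpin 14 at 24 h (chr15:15067419-15067569), lay 601 kb from a pseudogene and 1661 kb from Cdh9, a cadherin gene. A pair of regions of hairpin 14 lay on chromosome 18 in the desert next to Dsc3, a desmosomal cadherin gene: the 24 h region (chr18:18477885-18478035) was 494 kb and the 0 h region (chr18:18582385-18582535) 585 kb from the nearest gene. A region of hairpin 133 at 0 h (chr1:145825433-145825583) lay 483 kb from a gene, with Brinp3 its nearest coding neighbour at 670 kb. One of hairpin 133 at 24 h (chr4:80031134-80031284) lay 478 kb from a gene, with Tyrp1, a melanocyte enzyme gene, at 803 kb. All 4 lists occur among these 5 regions. The largest distance to a protein-coding gene was 2152.5 kb, from Pcdh17 to a region of hairpin 133 at 24 h (chr14:82291004-82291154).

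Chromosome 10 carried more of the regions than its ground would give, and the X chromosome fewer. Ground over 10 kb from genes amounted to 1021 Mb, or 37.8% of the chromosome span, and it varied from 26.5% of chromosome 19 to 50.9% of X and 88.5% of Y, so each chromosome's share of regions was set against its share of this ground. Chromosome 10 held 113 regions, 8.35% (6.93 to 9.96%) against 4.26% of the ground, a ratio of 1.96 (1.63 to 2.34). Chromosome 13 held 88, a ratio of 1.57 (1.27 to 1.92), and chromosome 12 held 96, a ratio of 1.54 (1.26 to 1.87). Chromosome 5 held 98, a ratio of 1.43 (1.17 to 1.73), and chromosome 9 held 65, a ratio of 1.39 (1.08 to 1.76). On the low side were chromosome 3 with 66 regions, a ratio of 0.708 (0.551 to 0.895), and X with 56, a ratio of 0.487 (0.369 to 0.628). Chromosome 11, which is rich in genes, was close to its share with 51 regions and a ratio of 1.10 (0.825 to 1.44). The Y chromosome held 0 regions, which allows a share of up to 0.222% by the limit of 3 counts of the total, or 0.272% by the two-sided exact interval, against 7.87% of the ground. Single-list regions near genes numbered 0 on Y as well. Keeping Y in the ground raises the ratios of all other chromosomes. With Y left out, a setting chosen after seeing the data, the ratio was 1.8 for chromosome 10, 1.45 for chromosome 13 and 1.42 for chromosome 12. It was 1.32 for chromosome 5, 1.28 for chromosome 9, 1.02 for chromosome 11, 0.652 for chromosome 3 and 0.448 for X. No intervals are given for that setting. Read mappability was not analysed, and low counts on X and Y cannot be read as less methylated DNA.

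In each of the 4 lists the ratio was above 1 for chromosomes 5, 9, 10, 12 and 13 and below 1 for X. On chromosome 10 the ratio was 2.33 with hairpin 133 at 24 h and 1.54 at 0 h, and 2.41 with hairpin 14 at 24 h and 1.80 at 0 h. Both 24 h lists were above both 0 h lists there. The share on chromosome 10 was 9.94% at 24 h and 6.59% at 0 h with hairpin 133 (two-sided Fisher's exact test, adjusted p = 0.690), and 10.3% and 7.67% with hairpin 14 (same exact test, adjusted p = 0.863), so neither difference passed the threshold of 0.05. Of 20 such tests between lists, over chromosomes 10, 12 and X, neighbours within 100 kb and distance over 100 kb, 0 passed, also at an unadjusted p under 0.05. The 4 tests on distance use a measure that chose the regions, and nothing is read from them. With the density of each distance band as the expectation, a setting chosen after seeing the data, the ratio was 1.85 for chromosome 10, 1.51 for chromosome 12, 1.46 for chromosome 13 and 0.467 for X. With the number of protein-coding genes as the expectation, the ratio was 1.83 for chromosome 10, 2.29 for chromosome 12, 1.72 for chromosome 13 and 1.25 for chromosome 5. By that measure chromosomes 3 (1.09), 9 (0.876) and 11 (0.513) changed side and X stood at 0.938, a setting that for all but chromosome 10 was chosen after seeing the data.

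**Figure D3:**
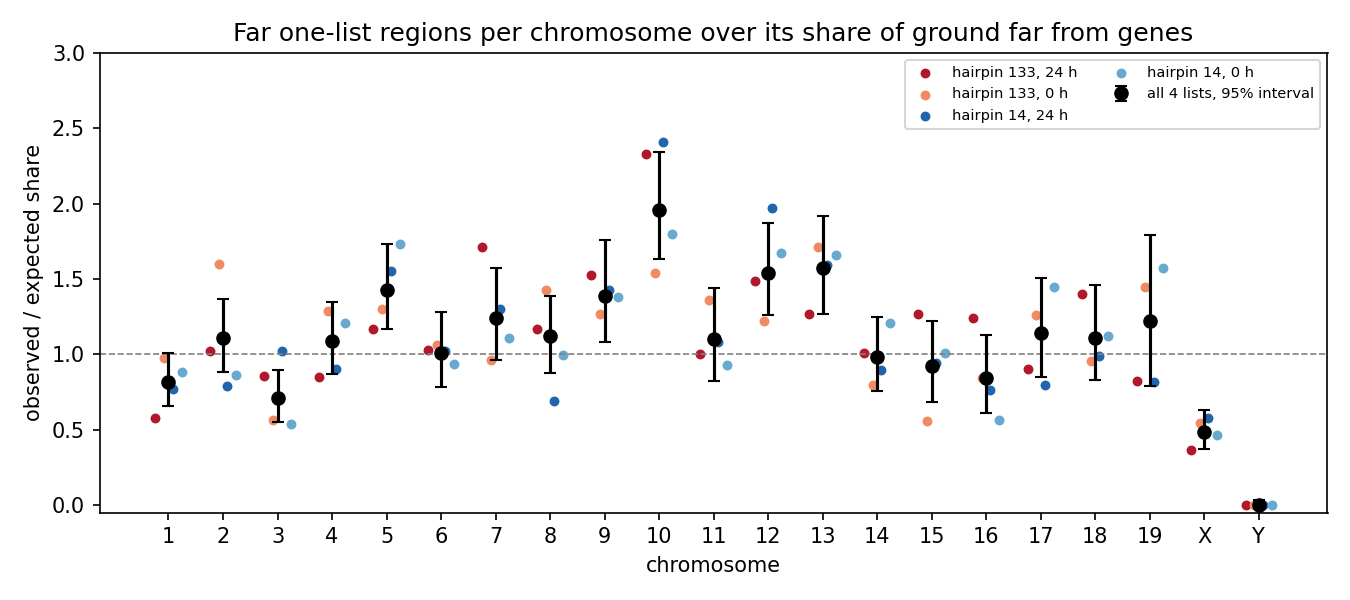
Observed over expected share of regions per chromosome, the expected share being the chromosome's part of all ground over 10 kb from genes; black points are the 4 lists together with exact binomial 95% intervals and coloured points are single lists. Chromosome 10 stands highest at 1.96, X is at 0.487 and Y at 0.

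The excess on chromosome 10 lay in its distal part. The division at 60 Mb was not part of the plan and was set with earlier results known, so the ratios on each side can follow from that choice. Beyond 60 Mb there were 88 regions on 21.0 Mb of ground, 4.18 per Mb or 3.16 times the expected number. Up to 60 Mb there were 25 on 22.5 Mb, 1.11 per Mb or 0.839 times. In the distal part the bin from 70 to 80 Mb, where Pcdh15 and Zwint lie, was the densest with 18 regions and 8.65 per Mb, and the bin from 100 to 110 Mb held 4 regions, 0.842 per Mb. Each list had more regions in the distal than in the proximal part: 26 against 6 for hairpin 133 at 24 h, 22 against 5 at 0 h, 21 against 4 for hairpin 14 at 24 h, and 19 against 10 at 0 h. On chromosome 12 the bin from 100 to 110 Mb held 27 regions on 2.74 Mb of ground (9.87 per Mb), and on chromosome 13 that from 50 to 60 Mb held 20 on 2.50 Mb (7.99 per Mb). Each was picked as the densest bin of its chromosome. On X no bin of 10 Mb held more than 6.

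Against other classes of region, the single-list regions far from genes passed the threshold in 5 of 8 tests. Those that passed include the tests of X and of neighbours against near-gene regions, from which nothing is read, since distance chose the regions. All 8 tests take each region as an independent draw. Regions that lie in clusters are not independent, so the p-values can be too small. On chromosome 10 they had a lower share than far regions of 2 or more lists, 8.35% against 19.0% (51 of 269; odds ratio 0.390, two-sided Fisher's exact test, adjusted p = 3.17e-06), and a share that did not differ past the threshold from single-list regions at or near genes, 9.06% (601 of 6632; odds ratio 0.914, adjusted p = 0.433). On chromosome 12 they lay between both classes, with 7.10% against 11.5% of far regions of several lists (odds ratio 0.586, same exact test, adjusted p = 0.0285) and 5.78% of single-list regions near genes (odds ratio 1.25, adjusted p = 0.0911). With 50 kb in place of 10 kb as the limit, neither chromosome differed past the threshold from far regions of several lists (odds ratio 0.830, exact test, adjusted p = 0.635 for chromosome 10, and 0.331, adjusted p = 0.0663 for chromosome 12). Without non-coding genes, chromosome 12 no longer passed against several-list regions (odds ratio 0.726, exact test, adjusted p = 0.0876) and passed against near-gene regions (odds ratio 1.39, adjusted p = 0.00138).

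On X the share was 4.14% (56 of 1353), against 1.24% of single-list regions at or near genes (82 of 6632; odds ratio 3.45, Fisher's exact test, adjusted p = 1.40e-10). X also has the most ground over 10 kb from genes, 86.8 Mb or 50.9% of its span, against 37.8% over all chromosomes. Distance from genes chose the regions, so the test against near-gene regions cannot separate a trait of X from that choice. Nothing is read from it. Per Mb of their own ground, the far regions on X stood at 0.645 and the near-gene ones at 0.978, against 1.33 and 3.94 over all chromosomes. Far regions of several lists had 2.23% on X (6 of 269; odds ratio 1.89, exact test, adjusted p = 0.187).

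A listed neighbour was less common for the regions than for far regions of several lists. Another region of any list lay within 100 kb of 52.3% of them (708), against 66.5% of far regions of several lists (Fisher's exact test, adjusted p = 3.41e-05) and 72.3% of single-list regions at or near genes (adjusted p = 2.80e-44). Beyond 50 kb from genes the first of these differences did not pass (odds ratio 0.649, exact test, adjusted p = 0.336). Density differs between these classes too, at 1.33 per Mb for far and 3.94 per Mb for near-gene single-list regions. Its part in the neighbour counts was not tested. Distance from genes chose the regions, so the test against near-gene regions cannot separate solitude from that choice. Nothing is read from that test.

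Few of the regions were near misses of a peak in another list. The nearest peak of any other list lay a median of 116 kb away, within 1 kb for 29 regions (2.14%), within 10 kb for 122 (9.02%) and over 1 Mb away for 68. The closest pair was on chromosome 7, where a region of hairpin 14 at 24 h (chr7:36934068-36934218) and one of hairpin 133 at 0 h (chr7:36933895-36934045) were 23 bp apart, 161 and 160 kb from Tshz3, a zinc finger gene. Another pair lay 78 bp apart near Ebf3, an early B-cell factor family gene, at 24 h (chr7:137170468-137170618) and 0 h (chr7:137170696-137170846) with hairpin 133. The region of hairpin 14 at 0 h next to Spaca7 was 44 bp from a peak of hairpin 14 at 24 h. In none of these pairs did the peaks share a base, which is why each counts as listed once.

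The other lists lay at like distances. Within 10 kb of a region of hairpin 133 at 24 h there was a peak of hairpin 14 at 24 h in 4.66% of cases, of hairpin 133 at 0 h in 5.28% and of hairpin 14 at 0 h in 4.97%. For hairpin 14 at 24 h the shares were 4.12% for hairpin 133 at 24 h, 7% for hairpin 133 at 0 h and 4.94% for hairpin 14 at 0 h. For the 0 h regions they ran from 2.44% to 3.97%. The intervals within each list overlap, and the lists searched differ in length (2666 to 3900 peaks). The most isolated regions were on X, where one of hairpin 14 at 0 h (chrX:67541939-67542089) was 6131 kb from any peak of another list, and the 5 most isolated were all of that list, 4 of them on X.

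When regions were chained wherever neighbouring centres lay within 100 kb, 998 stood alone, 127 pairs formed, and 29 clusters of 3 or more held 101 regions (7.46%). In all, 355 regions (26.2%, 23.9 to 28.7%) had another such region within 100 kb. Clusters held 9.32% of the regions of hairpin 133 at 24 h, against 4.63% at 0 h, and 9.88% of those of hairpin 14 at 24 h, against 7.41% at 0 h. The share with any such neighbour was 28% at 24 h and 22.7% at 0 h with hairpin 133 (Fisher's exact test, adjusted p = 0.690) and 27.6% and 27.8% with hairpin 14 (adjusted p = 1). Of the clusters, 4 held a single list, 9 held 2, 15 held 3 and 1 held all 4. Among the 127 pairs, 22 were of the same list (17.3%), 30 of different hairpins at the same time, 37 of the same hairpin at different times and 38 of lists that differed in both. Numbers expected from the sizes of the lists were not worked out, so no mixing of lists is read from these counts. Chromosomes 7, 10 and 12 had 4 clusters each.

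The cluster with most regions had 7 over 186 kb of chromosome 8 (chr8:121301790-121487804), between Foxl1, a forkhead transcription factor gene, 171 kb before it and a predicted coding gene 43 kb after it. It held 4 regions of hairpin 133 at 24 h and 1 of each other list, and a further 4 regions of several lists lay inside it. A cluster of 6 spread over 306 kb of chromosome 13 (chr13:52145546-52451769) between Gadd45g, a stress-response gene, and Diras2, a Ras-family GTPase gene, with 2 of hairpin 133 at 24 h, 1 of hairpin 14 at 24 h and 3 of hairpin 14 at 0 h. The hairpin 133 list of 0 h is the one absent from the second of them. The shortest cluster held 3 within 2.22 kb of chromosome 7 (chr7:35902002-35904221), 99 kb from Zfp507, of which 1 was from hairpin 14 at 24 h and 2 were from hairpin 133 at 0 h.

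Clusters of 4 flanked genes with known roles. Beside Runx1, the transcription factor gene needed for definitive blood formation, 4 regions lay over 146 kb (chr16:93010924-93157397), 185 kb or more from its body: 2 of hairpin 133 at 24 h, 1 of hairpin 14 at 24 h and 1 of hairpin 14 at 0 h. Beside Mtss1, a gene of membrane curvature and actin binding, 4 lay over 56.1 kb (chr15:59117935-59173992), with 1 of hairpin 133 at 24 h, 2 of hairpin 14 at 24 h and 1 of hairpin 14 at 0 h. Neither cluster holds a region of hairpin 133 at 0 h. Next to Spin1, a histone methylation reader gene, 4 lay over 110 kb (chr13:50966484-51076726), and next to Vrk1, a nuclear protein kinase gene, 4 lay over 106 kb (chr12:106196598-106302629). Between Zmat4 and Tcim 4 lay over 117 kb (chr8:24238009-24354723). Between Slc4a3, an anion exchanger gene 65 kb away, and Epha4, an ephrin receptor gene 1588.2 kb away, 4 lay over 155 kb (chr1:75624474-75778976). Beside Wdr20rt 4 lay over 258 kb (chr12:65251734-65509330). The Slc4a3 cluster held only 0 h regions, 2 of each hairpin, and the Wdr20rt cluster only hairpin 14 regions, 2 at 24 h and 2 at 0 h.

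A smaller cluster of 3 stood beside Pcdh15, the inner ear protocadherin gene, 67.9 kb from its body (chr10:74717722-74739477). Another spanned 5.45 kb between Ebf2, 177 kb away, and Cdca2, 59.7 kb away (chr14:67608054-67613500). Each held 1 region of hairpin 133 at 24 h, 1 of hairpin 14 at 24 h and 1 of hairpin 14 at 0 h. The same make-up was found between Llph and Hmga2, an architectural chromatin gene (chr10:120254680-120323134). A cluster between Rtl1 and Dio3, both imprinted genes, lay 234 kb from Rtl1 and 311 kb from Dio3 (chr12:109838152-109967925). It held 2 regions of hairpin 133 at 24 h and 1 of hairpin 14 at 0 h.

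**Figure D4:**
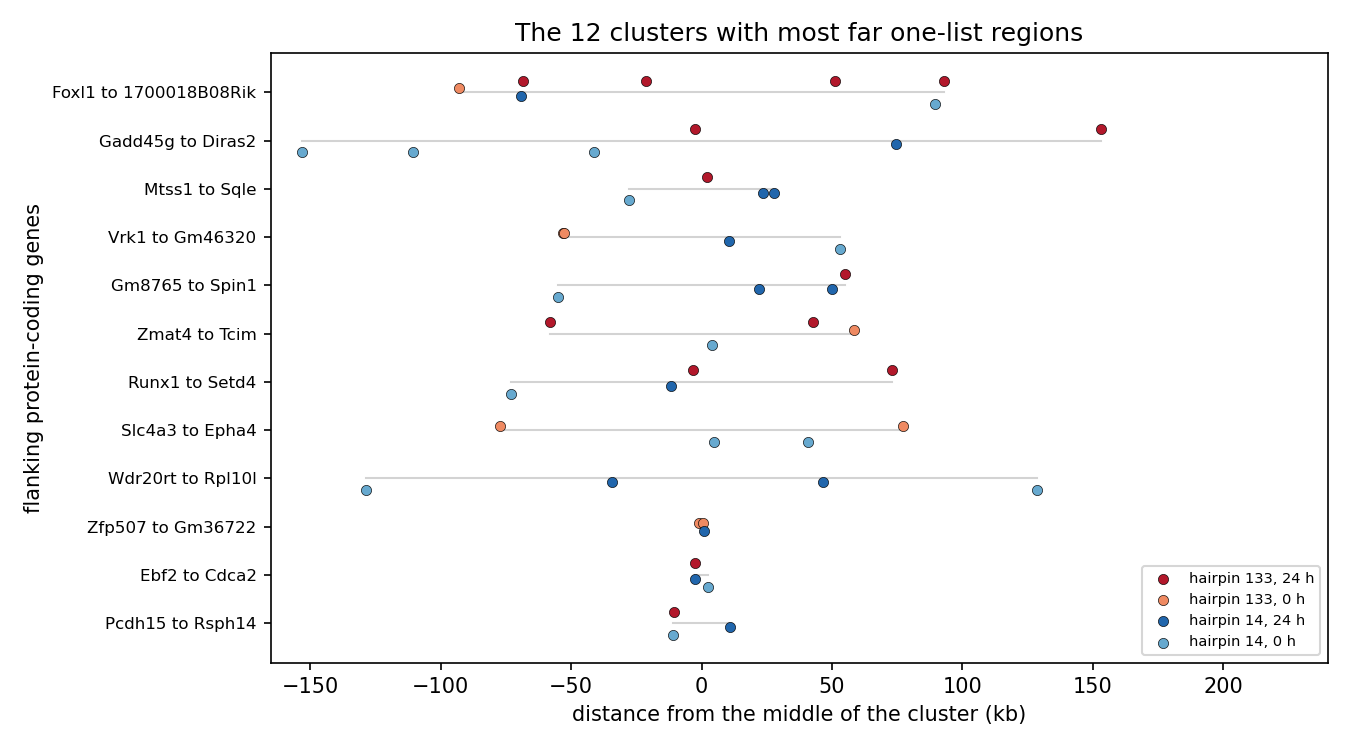
Positions of the regions in the 12 clusters with most regions, as distance from the middle of the cluster in kb, one row per cluster named by its flanking protein-coding genes; colours mark the library, and points of a row are set at 4 heights by library so that close points can be told apart. The cluster between Foxl1 and a predicted gene has 7 regions, and the one between Zfp507 and Gm36722 spans 2.22 kb.

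Wider chaining, at 500 kb, brought out longer stretches. The chains named were picked for their number of regions, and their ground is counted between their own outer regions. A number above expectation therefore follows from the choice, and nothing is read from it. The longest chain had 18 regions over 1937 kb of chromosome 12 (chr12:105943974-107880915), from beside Papola, past Vrk1, to Bcl11b, a T-cell transcription factor gene, where its 1.22 Mb of ground would give 1.61 at the mean density. It held 6 of hairpin 133 at 24 h, 5 of hairpin 133 at 0 h, 4 of hairpin 14 at 24 h and 3 of hairpin 14 at 0 h. A chain of 11 lay on chromosome 13 between Gadd45g and Drd1, a dopamine receptor gene, where 0.769 would be expected, with 6 of them from hairpin 14 at 0 h. Chains of 8 lay on chromosome 10 from Pcdh15 to Gucd1, on chromosome 7 from Zfp507 to Zfp536, and on chromosome 7 from Mki67, the proliferation marker gene, to Tcerg1l. A chain of 7 between Med13l, a Mediator gene, and Tbx3, a T-box gene, had 5 regions of hairpin 14 at 0 h. Another 7, between Thap1 and Erlin2, came from 0 h alone, 5 with hairpin 133 and 2 with hairpin 14.

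Each region was assigned to its nearest protein-coding gene. Of 21887 such genes 1063 (4.86%) were nearest to at least 1 region, and 10613 had any ground over 10 kb from genes for which they were the nearest. The great part, 845, were nearest to a single region, 167 to 2, 36 to 3 and 15 to 4 or more. Regions of all 4 lists had the same nearest gene in 3 cases, of which 1 is a predicted gene. Position relative to the gene was balanced: of 1059 regions whose nearest gene has a strand in the promoter table, 551 lay upstream and 508 downstream, 52.0% upstream (49.0 to 55.1%).

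Vrk1 was nearest to 6 regions, 27.7 to 224 kb away: 2 of hairpin 14 at 24 h, 2 of hairpin 133 at 0 h and 2 of hairpin 14 at 0 h, on 0.277 Mb of ground where the mean density gives 0.367. Diras2 was nearest to 5, from 3 lists. Cbln4, a synapse organiser gene, and Dsc3 were each nearest to 4 regions, 1 from every list, lying 236 to 477 kb from Cbln4 and 396 to 1483 kb from Dsc3. Dsc3 has 1.45 Mb of ground, on which 1.92 would be expected, and Cbln4 0.478 Mb, on which 0.633 would be. Mtss1, Runx1, Spin1 and Zwint, a kinetochore gene, had 4 each from 3 lists. Igfbp7, an insulin-like growth factor binding protein gene, Med13l, Slc4a3, Wdr20rt and Zfp703 had 4 each from 2 lists. For Igfbp7, with 1.60 Mb of ground, 2.12 would be expected. These genes were picked for their number of regions, so numbers above expectation follow from the choice and nothing is read from them.

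Among genes with 3 regions from 3 lists were Cdca2, Csl, Foxl1, Irx1, Pcdh15, Rapgef5 and Tcim. Per Mb of ground, Coq2, a gene of coenzyme Q synthesis, ranked first of the genes with 3 or more, with 3 regions on 0.0312 Mb, and Spin1 followed with 4 on 0.0998 Mb. Irx1, an Iroquois homeobox gene, had 3 on 0.643 Mb.

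Developmental transcription factor genes were the list of gene neighbours with most regions. Of 212 homeobox, paired, T-box, Sox and forkhead genes 41 (19.3%) were nearest to a region, against 4.86% of all protein-coding genes. To them fell 59 regions, 11 of hairpin 133 at 24 h against 21 at 0 h and 9 of hairpin 14 at 24 h against 18 at 0 h. The 24 h lists are shorter as a whole, and these counts were not tested between times. The 22.4 Mb of ground of these genes would give 29.6 regions at the mean density, a ratio of 1.99 (1.52 to 2.55). With the density of each distance band the expectation was 32.5 and the ratio 1.81. Foxl1 and Irx1 had 3 each, as did Tbx3, with 1 of hairpin 14 at 24 h and 2 of hairpin 14 at 0 h, 250 to 412 kb away. Emx2 had 2, of hairpin 133 at 24 h and at 0 h. Of the 41 genes, 21 had a region within 100 kb. Hox genes, which lie packed in clusters, were nearest to 0 regions (0 of 39 genes), and their 0.196 Mb of ground would give 0.260.

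Genes of cell adhesion were nearest to a region more often than protein-coding genes at large (4.86%), but held fewer regions than their ground would give. Of 97 cadherin and protocadherin genes 13 (13.4%) were nearest to 19 regions, on 35.6 Mb that would give 47.2, a ratio of 0.402 (0.243 to 0.626). By distance band the ratio was 0.525. The list holds no desmosomal cadherin genes, and Dsc3, with 4 regions where 1.92 would be expected, is not counted in it. Pcdh15 had 3 and Cdh9, Cdh26, Pcdh7 and Pcdh11x had 2 each. Of 89 axon guidance and synaptic adhesion genes 24 (27.0%) were nearest to 30 regions, on 48.1 Mb that would give 63.8, a ratio of 0.470 (0.318 to 0.668) and by distance band 0.578. Cadm2, Cntnap5a, Efna5, Nrxn3 and Slitrk5 had 2 each. At 24 h these 30 numbered 4 with hairpin 133 and 1 with hairpin 14, against 15 and 10 at 0 h. Far single-list regions of all kinds numbered 322 and 243 at 24 h, against 410 and 378 at 0 h. The counts of this gene list are small and were not tested between times.

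Signalling and blood genes were nearest to a region about as often as the 4.86% of all protein-coding genes, with shares of 2% to 7.5% over 4 lists. In the pathway that Plcg1 belongs to, 3 of 60 phospholipase C, protein kinase C or calcium genes (5%) were nearest to a region: Prkcq (43.3 kb, hairpin 14 at 0 h), Prkd1 (295 kb, hairpin 14 at 24 h) and Stim2, a calcium sensor gene (21.2 kb, hairpin 133 at 0 h). Plcg1 itself lay 217 kb from the closest region of hairpin 133 at 24 h and 2402 kb from that at 0 h, and 7183 kb and 1191 kb from those of hairpin 14 at 24 h and 0 h. Among 40 Epo and Kit signalling genes 3 were nearest to 4 regions, Pik3r1 with 2 and Kit and Ptpn11 with 1 each. The region of Kit, the stem cell factor receptor gene, was of hairpin 14 at 0 h and 124 kb away. Of 50 erythroid, haem and globin genes only Runx1 was nearest to any, with its 4. Of 53 lymphoid, myeloid and megakaryocyte genes, Bcl11b had 2, 1 of hairpin 133 and 1 of hairpin 14, both at 24 h, and Gata3 had 1. Expected numbers for these 4 lists were 2.16 to 6.06 and the intervals of all 4 ratios include 1.

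Olfactory and vomeronasal receptor genes, which fill large arrays and are silent outside sensory neurons, were nearest to 18 regions, 17 of 1459 genes (1.17%). Their 16.8 Mb of ground would give 22.2, a ratio of 0.810 (0.481 to 1.28). Olfr136 was nearest to 2 regions, 1 with each hairpin at 0 h, 11.1 to 17.9 kb away.

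**Figure D5:**
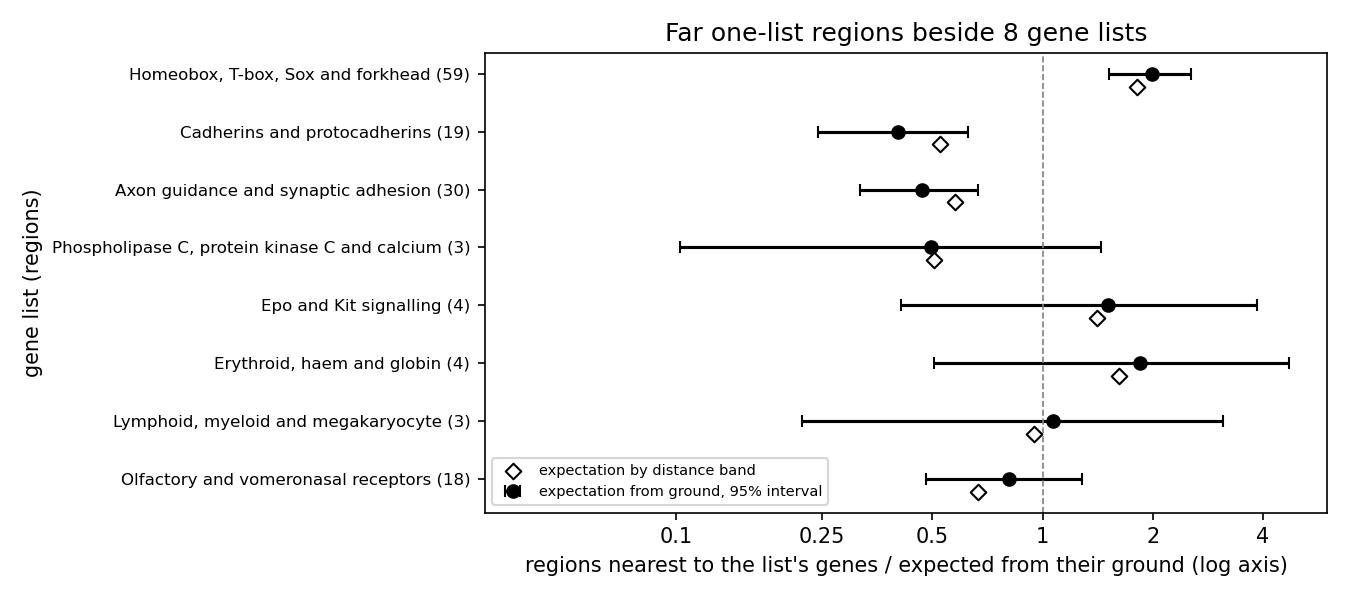
Regions nearest to the genes of 8 lists, divided by the number expected from the ground over 10 kb from genes that belongs to those genes (log axis); black points carry exact binomial 95% intervals, open diamonds use the density of each distance band, and the number of regions stands after each name. Developmental transcription factors are at 1.99 and cadherins at 0.402; the Hox list, with 0 regions, is not drawn.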

How the data were processed

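Methyl-CpG immunoprecipitation DNA (MBD2-Fc, eluted with 1 M NaCl, per the labels' protocols) was sequenced from 6 libraries, and 4 deposited peak lists were used as the authors gave them: chromosome, start and end on mm10, starts read as 0-based, no score or count. BWA, Picard, SAMtools and HOMER are named, without roles, per the submitters' processing notes. Versions, peak threshold and control are not given in the sources used here. Genes came from 49997 RefSeq entries of the assembly GRCm38.p6, whose chromosome coordinates are those of mm10.

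Regions were merged with Python 3.11.15 by 1 bp overlap. Of them 5 on unplaced contigs were left out, 4 of those in 1 list. Ground was every base between the outermost genes or peaks over 10 kb from genes, assembly gaps included. Fisher's exact tests (SciPy 1.17.1, two-sided) had Benjamini-Hochberg adjustment over 8 and 20 tests. Merging, distances and tests were tested on simulated data. Members, gene lists and alternatives were chosen with earlier results of these data known. Sequence and CpG content of the regions were not used here. Named genes followed a rule of most regions, clusters and distances; predicted genes were counted. Genes outside it (Gadd45g, Drd1, Tshz3, Ebf3 and other neighbours of clusters, chains or pairs) were named after their values were seen. One gene that the rule would name is not reported here.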

Additional observations from a re-analysis of the deposited data

How the results depend on the processing

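The number of single-list regions far from genes was 1324 to 1793 under an overlap of 50% of the shorter peak, a 1 kb gap counted as shared, a limit of 5 kb and distance from the peak edge. With a limit of 50 kb it was 355 (87 and 99 for hairpin 133 at 24 h and 0 h, 57 and 112 for hairpin 14), and with protein-coding genes only 2433 (587 and 743, 433 and 670), since both change the ground by construction. At 50 kb the ratio of 24 h to 0 h with hairpin 14 was 0.509. There 2 of the 8 tests against other regions passed, where 5 passed at 10 kb. Both set far against near-gene regions, for X and for neighbours, and nothing is read from them. Fewer regions were tested at 50 kb, and odds ratios also moved, of which the cause was not tested. A neighbour within 50 kb was found for 19.6% and within 500 kb for 55.7%. Set against chromosome span, the ratio was 0.836 for chromosome 11, a change of side, 0.655 for X and 1.07 for chromosome 9. Set against protein-coding gene number it was 2.29 for chromosome 12 and 0.938 for X, and it changed side for chromosomes 3 (1.09), 9 (0.876) and 11 (0.513). Ground, span and gene number differ between chromosomes, so these ratios move by construction. With 1 list left out in turn, a setting added after seeing the data, the number was 1091 to 1173. No paired analysis was possible because no group has a second library and a list holds no value to fit. Within hairpins 133 and 14, the share on chromosome 10 at 24 h minus that at 0 h was 3.35 and 2.62 percentage points. Read depth is unknown, so no limit for methylation can be given.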
